A study of Mus musculus with 2 samples.

Results

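The integrin and laminin genes of mouse skeletal muscle were examined after denervation. The members were chosen by name, not by measured values: every probe whose gene name begins with Itga or Itgb and denotes an integrin subunit, every Lama, Lamb or Lamc chain, and the linker genes Nid1 and Nid2. This gave 39 genes of 21972 gene symbols on the array, read by 83 probes: 26 integrin subunits (17 α and 9 β), 11 laminin chains and 2 nidogens. Another 11 probes with similar names, for proteins that bind or resemble integrins, were not counted as members. The names Itgad and Hspg2 were also sought, and no probe carried either name.

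The RNA came from gastrocnemius, a calf muscle, of male C57BL/6 mice that the design text calls wild type. In the denervated group the muscle had been without its nerve for 14 days, from 7 weeks of age, and was taken at 9 weeks. The control group was also 9 weeks old; one label calls it sham and another only control, and neither the operation nor the side is described. RNA from 6 mice of each group was pooled before hybridisation, and the comparison is 1 array against 1 array. No replicate spread between animals can be given, no test was possible, and every difference describes these pools. The labels give whole muscle as the tissue, and in such RNA fewer cells of a type and less RNA per cell cannot be told apart.

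Integrins are heterodimers of an α and a β subunit that span the cell membrane and tie the extracellular matrix to the actin cytoskeleton. Laminins are cross-shaped trimers of an α, a β and a γ chain that polymerise into the basement membrane around each muscle fibre, where nidogens link them to the collagen IV network. The mature fibre holds on to its laminin through α7β1 integrin and through dystroglycan. The laminin trimers at the neuromuscular junction differ from those along the rest of the fibre: the synaptic basal lamina holds the β2 chain and the α4 and α5 chains, whereas the rest of the fibre surface holds mainly α2 with β1 and γ1. Leukocytes carry their own integrins, built on β2, β7 or α4.

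Signals are given as normalised signal, the processed probe intensity on a scale where the 75th percentile of each array is 100. Differences are log2 of the denervated over the control signal, and the error after ± is the spot error of the scanner software, which is technical only. A gene counted as measured when a probe stood well above background in both pools, and it took the brightest such probe. Signals of different probes depend on the probe as well as the transcript, so "brightest" (the highest mean of log2 signals) only selects which probes and genes are named, and summed signals of a list are compared only between the pools. The 75th percentile itself was an intensity of 788 for control and 1063 for denervated muscle, and 70.9% and 68.4% of probes were well above background. All 6 genes of a denervation response list were higher in the denervated pool, with a median difference of 5.24. The brightest 2 were Gadd45a (336 and 11843, a difference of 5.14) and Chrna1, an acetylcholine receptor subunit (411 and 9746, 4.57), and the largest difference was that of Chrng, the fetal receptor subunit (6.33 and 2089, 8.37; its other probe 4.31). The 8 muscle fibre markers, which include Tnnc2 (-0.50), Tnnt3 (-0.21) and Ckm (-0.72), were all at high signal in both pools, with a median difference of -0.52.

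Of the 39 genes, 32 were measured on both arrays. At the 2-fold threshold, 4 were higher in the denervated pool, namely Itgam, Itgb5, Itgax and Itgb1, and 2 were lower, Itgb6 and Itga4. Among all 15652 measured genes, 6.92% were higher by 2-fold or more and 8.58% at least 2-fold lower, so 15.5% passed in either direction. The median difference of the 32 members was -0.32, with 12 above and 20 below 0, against -0.11 for all measured genes. The 22 measured integrins had a median of -0.10 and held all 6 genes past 2-fold. The 8 measured laminin chains had a median of -0.44, ran from -0.75 to 0.61, and none passed 2-fold.

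**Figure D1:**
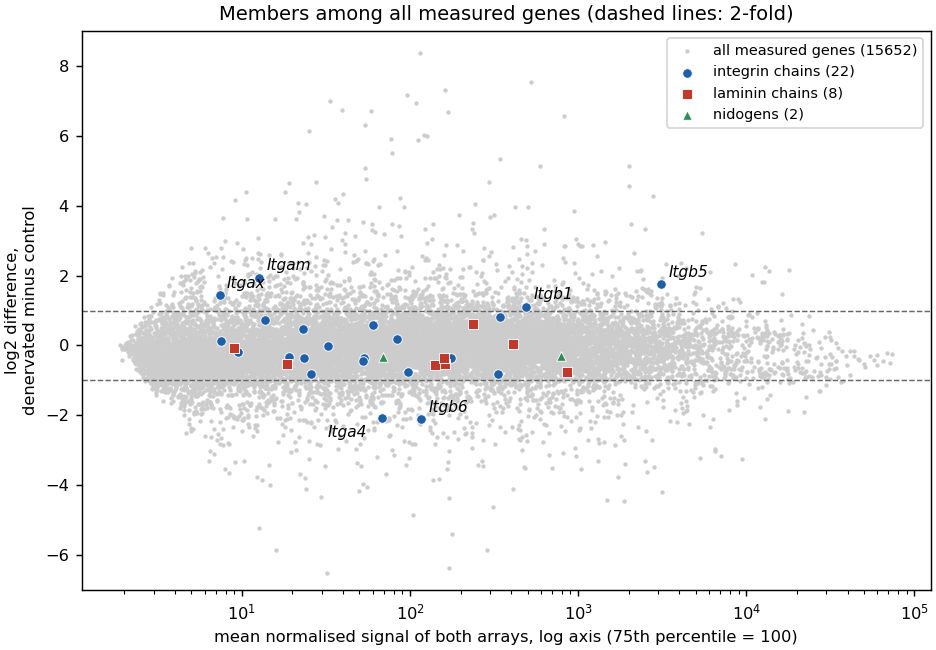
Log2 difference (denervated minus control) against mean normalised signal on a log axis, for all 15652 measured genes in grey and for the 32 measured members in colour, each a single value from 1 array per pool. The 6 members past 2-fold are named, from Itgam at 1.94 to Itgb6 at -2.10, and the laminin chains all lie between -0.75 and 0.61.

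The scale matters for small differences. With spike-in controls as the scale, the median of all genes moved up by 0.39, and with no scaling at all by 0.43. The 10 members that lay less than that below 0 then changed sign: Itga1, Itga11, Itga3, Itgal, Itgb7, Itgb8, Lama3, Lama4, Nid1 and Nid2. For these genes, values are given without a direction. With spike-in scaling 6 members were higher by 2-fold or more (14.0% of all genes) and 2 lower by that much (4.19%), and without scaling 8 higher (15.4%) and 2 lower (3.88%).

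The promoters of the 6 genes past 2-fold are shown so that the sequence upstream of each can be read beside its difference. Each run holds the 250 bases before the first listed start of the gene, from RefSeq on GRCm38.p6, on the coding strand, 5′ to 3′. Capitals mark matches, on either strand, to CAGCTG (an E-box core of the kind bound by myogenic factors), GAGGAA (a core found in ETS-type sites), TGTGGT (a RUNX core) and TGANTCA (the AP-1 site). The motifs were chosen after the differences were known, and no matches overlapped in these 6 runs.
Itgb1, chr8:128685404-128685653, plus strand: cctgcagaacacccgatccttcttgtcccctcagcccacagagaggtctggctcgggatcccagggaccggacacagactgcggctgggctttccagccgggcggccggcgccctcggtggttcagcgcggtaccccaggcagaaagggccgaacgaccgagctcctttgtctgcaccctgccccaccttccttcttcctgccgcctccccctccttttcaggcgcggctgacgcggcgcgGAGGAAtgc
Itgb5, chr16:33829415-33829664, plus strand: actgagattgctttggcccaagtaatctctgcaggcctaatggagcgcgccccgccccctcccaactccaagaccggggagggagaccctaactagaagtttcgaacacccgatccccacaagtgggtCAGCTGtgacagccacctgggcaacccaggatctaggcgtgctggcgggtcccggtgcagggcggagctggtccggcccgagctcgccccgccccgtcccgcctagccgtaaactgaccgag
Itgam, chr7:128062390-128062639, plus strand: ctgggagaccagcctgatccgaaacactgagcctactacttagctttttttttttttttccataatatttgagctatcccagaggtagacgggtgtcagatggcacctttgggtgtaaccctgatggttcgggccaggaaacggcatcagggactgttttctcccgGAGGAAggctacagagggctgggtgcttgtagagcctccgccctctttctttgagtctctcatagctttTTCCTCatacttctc
Itgax, chr7:128129300-128129549, plus strand: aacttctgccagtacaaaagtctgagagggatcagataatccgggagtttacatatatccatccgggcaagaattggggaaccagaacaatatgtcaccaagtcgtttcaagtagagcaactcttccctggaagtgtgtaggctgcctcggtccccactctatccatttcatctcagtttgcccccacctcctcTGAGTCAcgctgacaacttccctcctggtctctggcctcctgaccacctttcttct
Itga4, chr2:79255176-79255425, plus strand: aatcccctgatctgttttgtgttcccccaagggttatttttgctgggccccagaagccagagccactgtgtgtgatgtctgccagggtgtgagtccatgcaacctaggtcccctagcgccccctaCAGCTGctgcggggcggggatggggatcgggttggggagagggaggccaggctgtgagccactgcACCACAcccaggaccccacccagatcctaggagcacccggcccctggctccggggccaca
Itgb6, chr2:60722604-60722853, minus strand: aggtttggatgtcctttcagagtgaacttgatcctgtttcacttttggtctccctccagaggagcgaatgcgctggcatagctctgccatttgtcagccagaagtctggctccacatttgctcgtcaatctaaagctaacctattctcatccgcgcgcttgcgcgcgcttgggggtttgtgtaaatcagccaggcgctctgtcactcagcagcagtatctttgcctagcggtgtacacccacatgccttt

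The run of Itgb5 holds CAGCTG, beginning 122 bases before the start, and the run of Itga4 holds it 125 bases before the start together with a RUNX core at 60. GAGGAA occurs in Itgam at 84 and, on the opposite strand, at 15, and in Itgb1 at 9. The run of Itgax holds an AP-1 site that begins 56 bases before the start. The first listed start of Itgb6 has none of the motifs, and its second listed start has GAGGAA at 35. Among all 32851 promoter windows of this length, 13.0% hold CAGCTG, 23.3% GAGGAA, 14.0% TGTGGT and 6.75% TGANTCA. Of the 28 windows found for 25 members, 7 hold CAGCTG, 15 GAGGAA, 2 TGTGGT and 1 TGANTCA. A match describes the letters only and shows neither binding nor a cause.

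Among the chains of the muscle fibre, both subunits of the laminin receptor α7β1 were higher in the denervated pool and all 3 chains of the fibre's laminin were lower. The RNA was of whole muscle, and the part of cells other than fibres in these values was not tested. Itga7, the α subunit that binds laminin in muscle, read 258 in control and 455 in denervated muscle, a difference of 0.82 ± 0.20 (1.76-fold). Its other probe read 125 and 209, a difference of 0.74. Itga7 therefore lay below the 2-fold threshold on both probes; with spike-in scaling it passed, at 1.20, and without scaling at 1.25.

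Itgb1, the β1 subunit that pairs with α7 and with most other matrix-binding α chains, read 334 in control and 724 in denervated muscle, a difference of 1.11 ± 0.20 (2.16-fold). This probe, at bases 131618682 to 131618741 of chromosome 8 (mm8), was printed 10 times on each array. The 10 control spots lay between 326 and 346 and the 10 denervated spots between 695 and 741, so the spots did not overlap. The differences of the 10 spots ran from 1.04 to 1.17, with an SD of 0.05, which is printing and hybridisation error within 1 pool. A second probe was designed on a record described as integrin β1D, the splice form of striated muscle, and its listed position spans 5019 bases, more than its own length, so it crosses at least 1 intron. It read 147 and 353, a difference of 1.26. The third probe read 85.8 and 164, a difference of 0.93, which is below 2-fold, so the call for Itgb1 is lost where the probe with the smallest difference stands for the gene.

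Lama2, the α chain of the laminin along the fibre, read 170 in control and 116 in denervated muscle, a difference of -0.55 ± 0.20. Its probe was also printed 10 times: control spots lay between 161 and 181, denervated spots between 110 and 119, and the difference between -0.61 and -0.46 with an SD of 0.05. A second Lama2 probe gave -0.67 and the third was not well above background on either array. Lamb1, the β1 chain, read 193 and 135, a difference of -0.52 ± 0.20. Lamc1, the γ1 chain that most laminins of the body share, read 1117 and 664, a difference of -0.75 ± 0.20 (1.68-fold lower). None of these chains passed 2-fold. Their differences shrank to -0.12 for Lama2, -0.09 for Lamb1 and -0.32 for Lamc1 without scaling. Over the 5 muscle-fibre chains 1 was higher by 2-fold or more, none was lower by 2-fold or more, and the median difference was -0.52, the same to 2 decimals as that of the 8 muscle fibre markers. That median is the Lamb1 value of a split group. Itga7 and Itgb1 lay above 0, whereas all 8 markers lay below it.

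**Figure D2:**
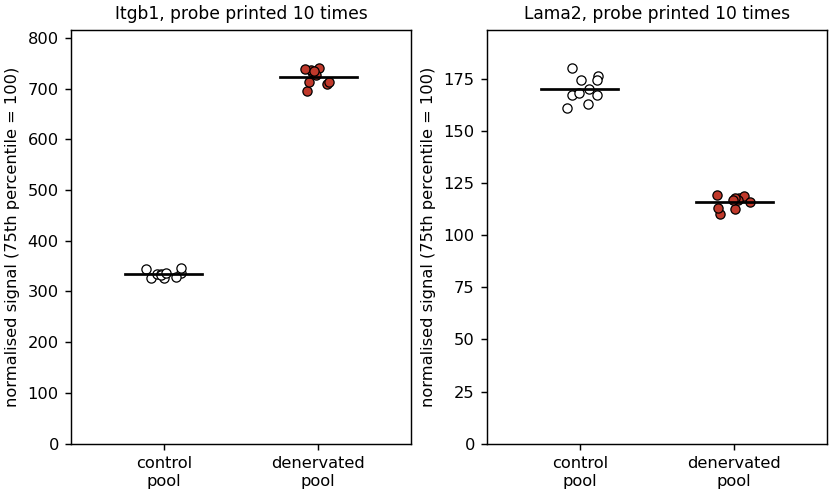
Normalised signal of each of the 10 spots of the Itgb1 probe and of the Lama2 probe in the control and denervated pools, with a line at the mean; the spots of a pool repeat 1 RNA sample. Itgb1 spots lie at 326 to 346 in control and 695 to 741 in denervated muscle, and Lama2 spots at 161 to 181 and 110 to 119, with no overlap in either gene.

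The chains of the synaptic laminins did not move together. Lama5, the α5 chain, read 191 in control and 291 in denervated muscle, a difference of 0.61 ± 0.20, and without scaling it passed 2-fold at 1.04. This value rests on 1 probe, designed on a predicted transcript record. The listed position of that probe spans 15 bases, less than its length of 60, and its match to Lama5 was not tested. Lamb2, the β2 chain concentrated at the neuromuscular junction, read 405 and 420, a difference of 0.05 ± 0.20, which is smaller than its spot error. Lama4, the α4 chain, which is also a laminin of blood vessels, read 179 and 140, a difference of -0.35 ± 0.20, and its 4 probes ran from -0.89 to -0.22. None of the 3 passed 2-fold, and their median was 0.05. Relative to all genes, whose median was -0.11, Lama5 lay above and Lama4 below, and Lamb2 lay within its spot error of that median. On the 75th percentile scale all 10 endothelial markers were lower in the denervated pool (median -0.60, with 1 past 2-fold). Their summed signal went from 3630 to 2224. Flt1 (-0.73) and Cdh5 (-0.56) were the brightest and Kdr (-1.12) differed most. Eng (-0.266), Tek (-0.342) and Pecam1 (-0.428), named after their values were seen, lay less below 0 than the shift of 0.432 without scaling. The direction of those genes therefore depends on the scale. The part of vessels in the Lama4 value was not tested.

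**Figure D3:**
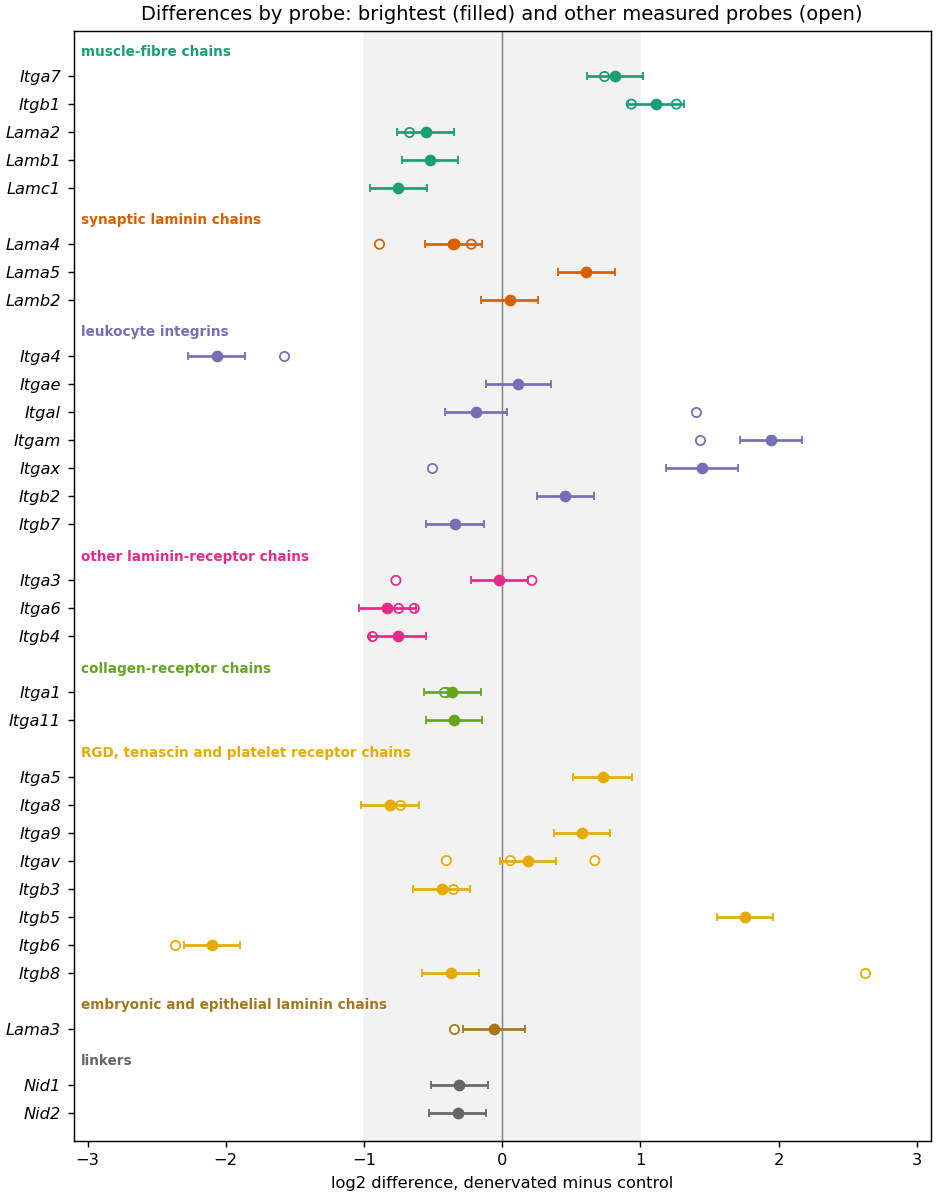
Log2 difference (denervated minus control) of each measured member reported here, grouped by role, with the software's spot error as the bar, the other measured probes of a gene as open marks and the range within 2-fold shaded. Itga7 (0.82) and Itgb1 (1.11) lie above 0 while Lama2 (-0.55), Lamb1 (-0.52) and Lamc1 (-0.75) lie below it, and the leukocyte integrins run from -2.06 (Itga4) to 1.94 (Itgam).

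The remaining laminin chains are known mainly from embryonic and epithelial basement membranes, and most were dim. Lama3, the α3 chain of epithelial laminin, read 9.21 and 8.83, a difference of -0.06, and -0.35 on its other probe. Lamb3, the β3 chain, cleared background only in control muscle, at 5.74, at least 3.41-fold above denervated muscle. Bounds of this kind divide the bright value by the dim probe's signal, or by the lowest signal well above background on the dim array where that is higher. Lama1, the α1 chain of the embryo, and Lamc3, the γ3 chain, were not well above background on either array.

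Of 8 epithelial and skin markers 5 were measured, with a median of -0.57, and their summed signal was 163 and 189. The largest difference and 1 of the 2 brightest was Trp63 (1.62), the other brightest was Krt10 (-1.35), and Krt15, Cdh1 and Dsp were not measured on both arrays. The part of skin or other epithelium in the Lamb3 value was not tested.

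Nid1 and Nid2, the nidogens that bridge laminin and collagen IV, gave nearly equal differences: Nid1 read 884 and 714 (-0.31 ± 0.20) and Nid2 77.7 and 62.1 (-0.32 ± 0.20). Perlecan, the heparan sulfate proteoglycan encoded by Hspg2, is no member because its probes carry accession numbers in place of that name. One probe described as perlecan, at bases 136842554 to 136842612 of chromosome 4 (mm8), read 1205 and 1213, a difference of 0.01. A second probe, whose record is also described as perlecan, is placed on chromosome 13 by the files and read 67.2 and 18.5, a difference of -1.86; whether it reads the same gene was not tested.

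**Figure D4:**
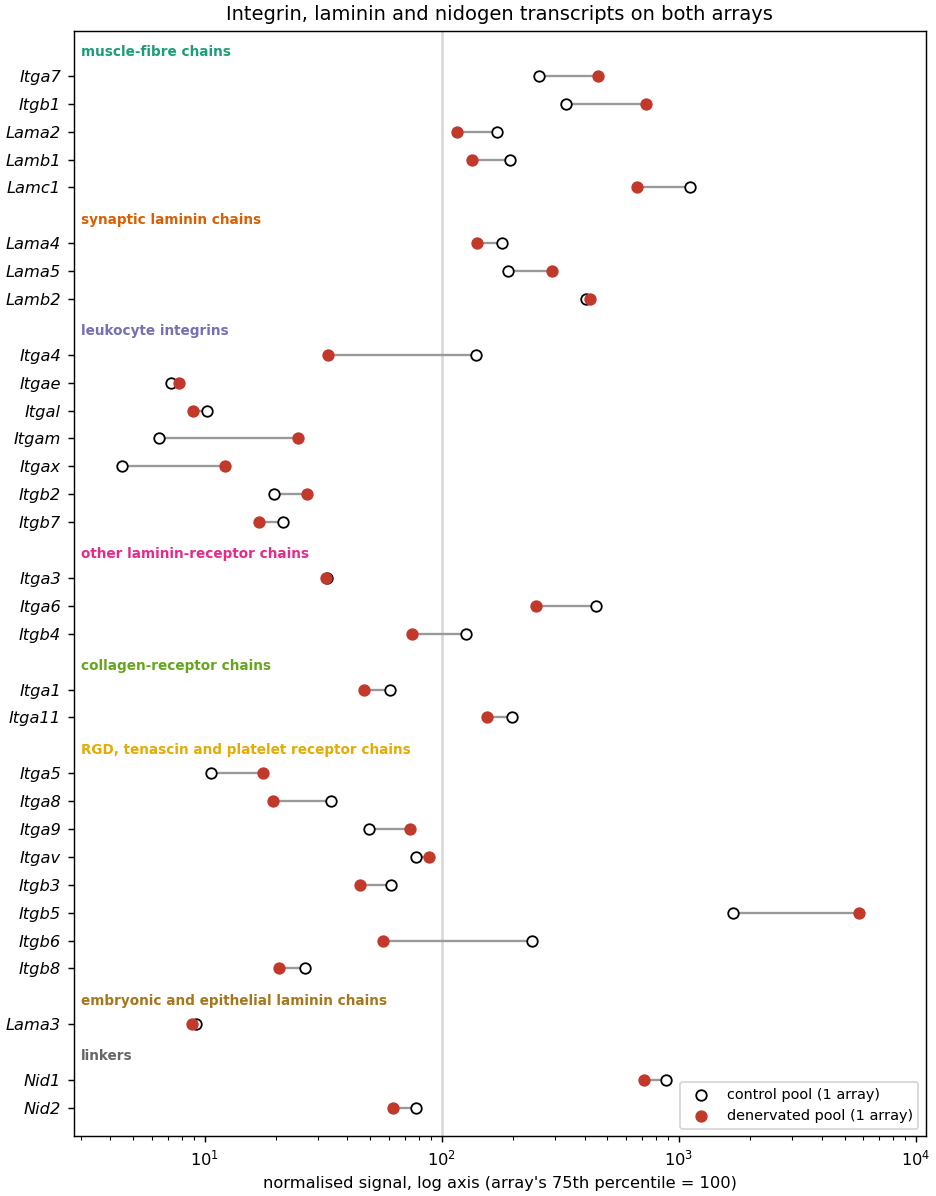
Normalised signal (log axis) of each measured member reported here in the control and denervated pools, 1 array each, joined by a line and grouped by role; the height of one gene's probe cannot be compared with another's. Lamc1 goes from 1117 to 664, Itgb5 from 1698 to 5747 and Itgb6 from 241 to 56.3, while Lamb2 reads 405 and 420.

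The other integrin chains that bind laminin were level or lower. Itga6, the α6 subunit of α6β1 and α6β4, read 445 and 250, a difference of -0.83 ± 0.20, and its 3 probes lay between -0.83 and -0.64. Itgb4, the β4 subunit that pairs only with α6, read 126 and 74.9, a difference of -0.75 ± 0.20. A second Itgb4 probe gave -0.94, but it overlaps the first by most of its length, and the third, farther upstream, cleared background only in control muscle (at least 1.37-fold higher). Itga3, the α3 subunit, read 32.9 and 32.4 on its brightest probe (-0.02), and its other probes gave -0.77 and 0.22, so the 3 probes lie on both sides of 0. The median of this group was -0.75, and no member passed 2-fold.

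Both α6 and β4 are known from Schwann cells and perineurium, and α6 also from endothelium, so their markers are given here. Of 10 Schwann cell and perineurium markers 5 were lower by 2-fold or more and 1 higher by that much. The shares of all measured genes were 8.58% lower and 6.92% higher. These markers had a median of -0.88 and a summed signal of 1379 in control and 780 in denervated muscle. Pmp22 (-1.55) and S100b (-0.04) were the brightest, and Ngfr differed most (2.47, with -0.16 on its other probe). The myelin genes Mbp (-1.38), Mal (-1.95) and Prx (-1.45), named after their values were seen, were also in the lower set. The part of Schwann cells, perineurium or vessels in the Itga6 and Itgb4 values was not tested.

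Of the collagen-binding α chains, 2 of 4 were measured and neither passed 2-fold. Itga1, the α1 subunit, read 60.3 and 47.0, a difference of -0.36 ± 0.20, and its 3 probes lay between -0.42 and -0.36. Itga11, the α11 subunit of fibroblasts, read 198 and 155, a difference of -0.35 ± 0.20. Itga2 and Itga10, the α2 and α10 subunits, were not well above background on either array. Among 6 fibroblast markers the median was 0.19, and their summed signal was 19151 and 22407, led by Dcn (0.15) and Col3a1 (0.63), with Clec3b (-1.04) farthest from 0.

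The chains of the receptors for fibronectin, vitronectin, other ligands with the RGD tripeptide, tenascin and platelet fibrinogen held the widest spread outside the leukocyte group. Of 9 chains 8 were measured, 1 was higher by 2-fold or more, 1 lower by that much, and the median was -0.09. Itgb5, the β5 subunit that forms the vitronectin receptor αvβ5, read 1698 in control and 5747 in denervated muscle, a difference of 1.76 ± 0.20 (3.38-fold). Only 1 probe reads it, at bases 33868784 to 33868843 of chromosome 16 (mm8), so no second probe can be set beside it. It stayed past 2-fold under each alternative tried, between 1.76 and 2.19. Its only known α partner, Itgav, read 78.0 and 88.7, a difference of 0.19 ± 0.20, and its 4 measured probes ran from -0.40 to 0.67, on both sides of 0.

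Itgb6, the β6 subunit of the αvβ6 receptor that activates latent TGF-β in epithelia, read 241 in control and 56.3 in denervated muscle, a difference of -2.10 ± 0.20 (4.29-fold lower). A second probe read 220 and 42.8, a difference of -2.36. The third, in a part of the gene farther upstream, read 13.2 in the control pool and was not well above background in the denervated pool, at least 7.81-fold lower there. All 3 probes thus lay in 1 direction and each was past 2-fold. Of the epithelial markers given above, Krt10 read 96.8 and 38.0 (-1.35) and Trp63 44.4 and 136 (1.62). Krt5 (-0.35) and Krt14 (-0.57), named after their values were seen, were at signals below 10 in both pools. The part of epithelium in the Itgb6 value was not tested.

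Itgb8, the β8 subunit that also pairs with αv, gave the least uniform reading of all members. Its brightest probe read 26.6 and 20.5 (-0.37 ± 0.21), whereas a second measured probe read 3.20 and 19.8 (2.63 ± 0.28). The other 2 probes were above background in the denervated pool only, at 14.0 (at least 7.58-fold higher there) and 3.41 (at least 1.85-fold higher there). With spike-in scaling the brightest probe was at 0.016 and without scaling at 0.061, so it has no settled direction, whereas the second measured probe was past 2-fold. Taking the mean of the 2 measured probes gave 1.13, past 2-fold. All 4 probes were designed on predicted transcript records, and which of them read the Itgb8 transcript of muscle was not tested.

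The other chains of this group lay within 2-fold. Itga5, the α5 subunit of the main fibronectin receptor, read 10.6 and 17.6, a difference of 0.73 ± 0.21; with spike-in scaling it was 1.12. Itga9, the α9 subunit that binds tenascin and osteopontin, read 49.2 and 73.6, a difference of 0.58 ± 0.20. Itga8, the nephronectin-binding α8 subunit, read 34.1 and 19.4, a difference of -0.81 ± 0.21, and its second measured probe gave -0.74. Itgb3, the β3 subunit of platelets and vessels, read 61.3 and 45.3, a difference of -0.44 ± 0.20, and -0.35 on its other probe. Its platelet partner Itga2b was not well above background on either array. The 4 platelet markers had a median of -0.45, with Pf4 (0.83) and Ppbp (-0.37) the brightest and Gp1ba (-1.05) farthest from 0. Their summed signal was 353 and 611, of which Pf4 alone read 337 and 600. The other 3 markers lay below 0.

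The leukocyte integrins split. Itgam, the αM subunit of macrophages and neutrophils also known as CD11b, read 6.44 in control and 24.8 in denervated muscle, a difference of 1.94 ± 0.22 (3.85-fold). Its second probe read 3.56 and 9.61, a difference of 1.43. With normexp background correction the brightest probe gave 1.06, still past 2-fold. Itgax, the αX subunit known as CD11c, read 4.46 and 12.2 on its brightest probe, a difference of 1.45 ± 0.26, but 4.52 and 3.18 on the other, a difference of -0.50 ± 0.32. The Itgax call therefore rested on 1 of 2 probes and ended with the mean of both (0.47) or with normexp background correction (0.42). Itgb2, the β2 partner of these α chains, read 19.6 and 27.0, a difference of 0.46 ± 0.21.

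Itga4, the α4 subunit of lymphocytes and other cells that binds VCAM-1 and fibronectin, went the other way. Its brightest probe read 139 in control and 33.2 in denervated muscle, a difference of -2.06 ± 0.20 (4.18-fold lower), and a second probe read 9.62 and 3.22, a difference of -1.58. A further 2 probes cleared background only in control muscle, each at least 1.17-fold higher there, and 2 were above background on neither array. Only the first 2 probes were measured in both pools, and both were past 2-fold. Its β partner Itgb7, of gut-homing lymphocytes, read 21.4 and 16.9 (-0.34 ± 0.21), and its other partner is Itgb1, described above.

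Itgal, the αL subunit of lymphocytes known as CD11a, read 10.2 and 8.93 on its brightest probe (-0.19 ± 0.22) but 2.82 and 7.47 on its second (1.40 ± 0.29). Itgae, the αE subunit of intraepithelial lymphocytes, read 7.19 and 7.79 (0.12 ± 0.23), and its second probe was above background on neither array. Itgb2l, a gene similar to Itgb2, was not well above background on either array. Over the 7 measured leukocyte integrins 2 were higher by 2-fold or more and 1 lower by that much. Their median of 0.12 came from values as far apart as -2.06 and 1.94 and turned below 0 under some settings, such as normexp correction (-0.16) and a stricter filter on dim probes (-0.26).

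**Figure D5:**
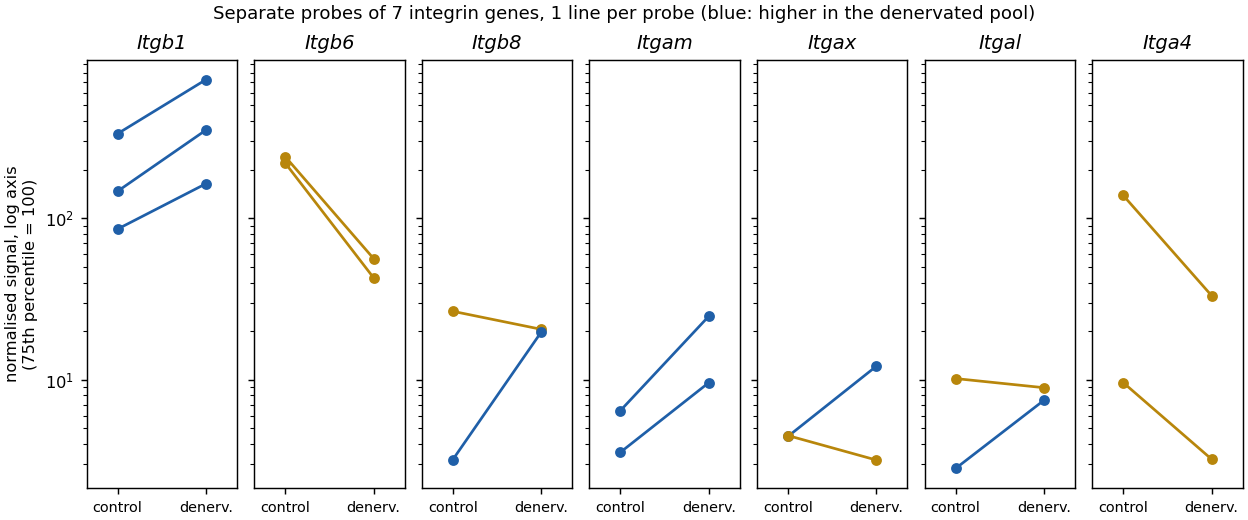
Normalised signal (log axis) in the control and denervated pools for each probe of 7 integrin genes that was measured on both arrays, 1 line per probe, in blue where the denervated pool is higher. The Itgb6 and Itga4 probes are lower on the denervated side (241 to 56.3 and 139 to 33.2 for the brightest) and both Itgam probes are higher there, while the 2 probes of Itgax, of Itgal and of Itgb8 differ from each other; the sign of the brightest Itgal and Itgb8 probes turns with spike-in or no scaling.

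The leukocyte markers were uneven in the same muscle. Of 14 myeloid markers 13 read 2-fold or more above control after denervation, against 6.92% of all measured genes. None was lower, the median was 1.47 and the summed signal went from 2172 to 6210. Lyz2 (1.48) and C1qc (1.45) were the brightest and Cd68, a macrophage lysosomal protein, differed most (3.53). Ptprc, the pan-leukocyte gene CD45, named after its value was seen, gave 1.44, and 0.74 on its other probe, which is below 2-fold. Of 6 neutrophil markers only S100a9 (1.37) and Mpo (-0.20) were measured, with a summed signal of 21.7 and 47.7. S100a8, Elane and Csf3r were not measured on both arrays, and no probe carried the name Ly6g.

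All 5 measured T and B cell markers, of 10, read lower in the denervated pool, with a median of -0.46 and a summed signal of 57.6 and 39.9. Cd3e (-0.55) and Cd79b (-0.39) were the brightest. Among satellite cell and myogenic markers, where α4 integrin's ligand VCAM-1 is also listed, 3 of 6 measured were higher by 2-fold or more. Of all measured genes 6.92% were. The 3 were Myog (5.34), Ncam1 (3.33) and Myod1 (2.71), the last 2 named after their values were seen. The 6 had a median of 1.80 and a summed signal of 695 and 4261. The 8 measured probes of Ncam1 ran from -0.62 to 3.33, on both sides of 0. Cdh15 (0.89) was among the brightest. Pax7, which marks satellite cells (-0.80), and Vcam1 (-0.44) lay below 0, and Pax7 too was named after its value was seen. The 8 smooth muscle and pericyte markers had a median of -0.71 and a summed signal of 42168 and 28633. Acta2 alone, which read 38351 and 26321, made up most of that sum. Acta2 (-0.54) and Rgs5 (-0.60) were brightest and Kcnj8 (-0.91) was farthest from 0. The part of cell numbers in the Itgam, Itgax and Itga4 values was not tested.

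Set side by side, the muscle-fibre chains had a median of -0.52 (1 of 5 past 2-fold, higher), the synaptic laminin chains 0.05 (none of 3 past 2-fold) and the leukocyte integrins 0.12 (2 of 7 past 2-fold higher and 1 lower). The median hides a split in the first group, where receptor chains lie above 0.80 and laminin chains below -0.50, and likewise in the leukocyte group. Among all measured genes 6.92% were higher by 2-fold or more and 8.58% lower by that much. The values of these 3 role groups describe small groups and were not tested against each other. Under every scaling tried, Itga7 and Itgb1 lay above 0 and Lama2, Lamb1 and Lamc1 below it.

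Where a gene had several probes, they were compared as a check. Of 18 members with at least 2 measured probes, 13 had all probes on 1 side of 0 and 5 had probes on both sides, namely Itga3, Itgal, Itgav, Itgax and Itgb8. Among all 5924 such genes on the array 28.7% had probes on both sides. In 4 members the probes differed by more than 1, against 11.3% of all such genes. The median range between probes of a member was 0.31, which exceeds the median spot error of 0.20. Probes measured on both arrays were 69.9% of member probes and 66.2% of all probes.

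Inside the cell, integrin tails bind adaptors that link them to actin. Of 35 listed adaptors and cytoskeletal links 34 were measured, 4 were higher by 2-fold or more and 3 lower by that much. Their median was -0.06. Among all measured genes 6.92% were higher by 2-fold or more and 8.58% lower by that much. Nmrk2, listed on the array as the muscle integrin-binding protein Itgb1bp3, had the largest difference, from 13510 to 742 (-4.19 ± 0.20). Csrp3, the muscle LIM protein of the Z-disc, went from 1109 to 4896 (2.14 ± 0.20), and Flnc, the muscle filamin, from 3034 to 9408 (1.63 ± 0.20). Fermt2, the kindlin that activates β1 integrins, was the brightest with Flnc by the mean of log2 signals and read 6280 and 4688 (-0.42). The others past 2-fold, named after their values were seen, were Fermt3, the kindlin of blood cells (1.54), Tln1, talin (1.23), Tns1, tensin (-1.18), and Itgb1bp2, melusin, which binds the β1 tail in striated muscle (-1.09).

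The basement membrane list held collagen IV chains, dystroglycan and other partners of laminin. Of 33 genes 30 were measured, 1 was higher by 2-fold or more and 4 lower by that much, with a median of -0.16. The shares of all measured genes were 6.92% higher and 8.58% lower. Fras1, a basement membrane protein of epithelia, had the largest difference, from 34.9 to 8.25 (-2.08 ± 0.22). Col18a1, whose C-terminal fragment is endostatin, went from 114 to 314 (1.46 ± 0.20), and Col4a3, a minor collagen IV chain, from 5.31 to 2.29 (-1.21). Sgca, α-sarcoglycan (0.03), and Sparc (0.02) were the brightest. Bcam (-1.11), a laminin α5 receptor, and Smoc1 (-1.01) were also past 2-fold, and were named after their values were seen, as were Dag1, dystroglycan (-0.07), and Agrn, agrin (-0.14).

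Of 24 ligands of integrins other than laminins 22 were measured, 5 were higher by 2-fold or more and 1 lower by that much, with a median of 0.35, against -0.11 for all measured genes. Past 2-fold were 6.92% of all measured genes on the higher side and 8.58% on the lower side. Spp1, osteopontin, which binds αv and α9 integrins, went from 45.2 to 348 (2.95 ± 0.20). Ccn1 went from 189 to 1051 (2.48 ± 0.20), and Tnc, tenascin-C, a ligand of α9β1, from 9.24 to 34.3 (1.89 ± 0.21). Mfge8 (-0.09) and Col3a1 (0.63) were the brightest. The rest past 2-fold were Tgfb1 (1.67), Postn, periostin (1.66), and Npnt, nephronectin, the ligand of α8β1 (-1.22). Vcam1 (-0.44), Icam2 (-0.81), Vtn, vitronectin (-0.84), and Fn1, fibronectin (0.39), lay within 2-fold; these and the preceding 3 were named after their values were seen.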

How the data were processed

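Total RNA of gastrocnemius from a control and a denervated pool was labelled with Cy3 and hybridised to 1-colour Agilent arrays, 1 per pool. The intensity values in the deposited scanner files came from Agilent Feature Extraction, version 9.5 in the submitters' processing notes and 9.5.3.1 in the headers, and were background-subtracted and detrended within each array with no scaling between arrays, per the file headers. The authors' deposited value table holds a score, found by comparison to be the intensity scaled to each array's 75th percentile, set to 100, and rounded, with column medians of 10 and 9. It served as an alternative.

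Each array had 43379 spots outside control classes. Spots marked by the software (87 control, 81 denervated) were left out, spots of a probe were averaged on the log2 scale, and log2 of the 75th percentile was subtracted. A probe was measured when both arrays had it well above background and unsaturated. The script was tested on simulated data. A single array per pool allows no test, and called means past 2-fold. The spot error contains the software's preset multiplicative error of 10%, per the file headers. The number of arrays limits the precision.

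Names came from the files, and 23374 probes were named through accessions in a RefSeq table (GRCm38.p6, also the source of the promoters); probe positions are mm8, as deposited. Members and lists were chosen with earlier results of these data known. The rule for names takes every member, and of each pathway list the 3 largest differences and the 2 brightest genes, and of each marker list the 2 brightest and the largest difference; a few genes it takes are not reported here, though counts and medians include them. Alternatives changed the scale, the background correction (limma's normexp, offset 50), the dim-probe filter, the marked spots, the probe rule, the threshold and the source table. Python 3.11.15, pandas 2.3.3, numpy 2.4.6, matplotlib 3.10.9, R 4.3.3 and limma 3.58.1 were used.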

Additional observations from a re-analysis of the deposited data

How the results depend on the processing

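All 6 members past 2-fold remained so under 8 alternatives: median, quantile, loess, spike-in or no scaling, the value table, no dim-probe filter, and marked spots kept. The count higher, 4 in the report, became 8 without scaling, 2 with a signal of at least 4 times the lowest detected, 2 with the probe of the smallest difference, and 7 at 1.5-fold (14.9% of all genes). The count lower, 2, became 5 without the dim-probe filter, through Itgb2l, Lama1 and Lamb3 (11.7% of all genes, against 8.58%), and 6 at 1.5-fold (22.2%). The median of all members was 0.072 with spike-in scaling and 0.12 without scaling, that of the muscle-fibre chains -0.13 and -0.090, and that of the synaptic chains 0.44 and 0.49. The leukocyte median was 0.36 with loess, 0.50 with spike-in scaling, 0.55 without scaling, -0.16 with normexp, -0.26 with the stricter filter, 0.46 with the mean of probes and -0.19 with the probe of the smallest difference. With that last rule Itgax was -0.50. The stricter filter kept 29 members, without Itgam and Itgax, since fewer dim genes were tested; the cause of the other shifts was not tested. Signals near the lowest well above background (1.84 control, 1.68 denervated) limit Itgam, Itgax, Itgal and Itgb8. No paired analysis was possible because each group has 1 sample.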
